A study of Homo sapiens with 8 samples.

Results

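The miR-106a-363 cluster is a group of miRNA hairpins on the X chromosome, and its products were followed here through 4 Dicer genotypes of human embryonic stem cells. Members were the 7 listed arms of miR-106a, miR-18b, miR-20b and miR-363, taken by name without regard to their values. Of these, 6 had a row among the 594 miRNAs of the table: the 5p arms of miR-106a, miR-18b and miR-20b, and the 3p arms of miR-106a, miR-20b and miR-363. The arm miR-363-5p was not analysed here. All 6 passed the filter of 5 RPM in 2 libraries.

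Small RNAs were sequenced from H1, an established human embryonic stem cell line, with 2 libraries per genotype from total RNA of independent samples, per the labels. The groups were cells homozygous for Dicer-S1344L, cells hemizygous for Dicer-S1344L, Dicer-null cells and wild-type cells. Both S1344L lines were engineered with CRISPR-Cas9, per the series description. The labels code homozygous cells pmpm, null cells fsfs and hemizygous cells pmfs, so that the hemizygous code joins one part of each of the others, and they do not spell these codes out. The number of clones behind each group is not given in the sources used here.

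Dicer cuts a hairpin precursor into a duplex whose strands are the 5p and 3p arms. Its RNase IIIa domain, in which S1344 lies, cuts the 3p strand of the hairpin, and its RNase IIIb domain cuts the 5p strand. One strand of the duplex is then loaded into an Argonaute protein and guides it to mRNAs through its seed, bases 2 to 8. The miR-106a-363 cluster is a paralog of the oncogenic miR-17-92 cluster on chromosome 13, and members of these clusters are known as regulators of proliferation and survival in stem cells and tumours.

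The mature sequences group the cluster by seed, and are shown because the comparisons of seed families and of paralogs rest on them. Capitals mark the seed, and the sequences are from RefSeq on GRCh38.p14. Those with the seed of miR-17, which targets genes of cell-cycle control, were 2 cluster arms, set beside their miR-17-92 paralogs:
miR-106a-5p: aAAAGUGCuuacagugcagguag
miR-17-5p: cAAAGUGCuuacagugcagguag
miR-20b-5p: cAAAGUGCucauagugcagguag
miR-20a-5p: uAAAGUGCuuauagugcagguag

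The miR-18 seed was held by 1 cluster arm and its paralog:
miR-18b-5p: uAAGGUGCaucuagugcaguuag
miR-18a-5p: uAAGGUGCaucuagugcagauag

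The seed of miR-92, which is shared with miR-25 and miR-367, was held by 1 cluster arm, and miR-20b-3p has a seed that no other matched miRNA of the table shares:
miR-363-3p: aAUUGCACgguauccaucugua
miR-92a-3p: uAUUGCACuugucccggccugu
miR-20b-3p: aCUGUAGUaugggcacuuccag
miR-20a-3p: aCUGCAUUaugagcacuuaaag

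Counting from 1 at the 5′ end, with the cluster arm's base first, miR-106a-5p differs from miR-17-5p by A1C alone, over 23 bases. Between miR-18b-5p and miR-18a-5p the difference is U20A, and between miR-20b-5p and miR-20a-5p the differences are C1U and C10U. The seeds of these pairs are the same. The passenger pair of miR-20b-3p and miR-20a-3p differs more, at 5 of 22 bases, among them U5C and G7U inside the seed. The arms miR-363-3p and miR-92a-3p share the seed and differ at 12 of 22 positions. The arm miR-106a-3p is named without its sequence.

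The hairpins show which strand each arm comes from, with the RefSeq mature arms in capitals (for MIR106A the 5p arm alone):
MIR106A: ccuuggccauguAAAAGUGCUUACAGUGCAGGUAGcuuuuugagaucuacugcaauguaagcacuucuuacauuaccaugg
MIR18B: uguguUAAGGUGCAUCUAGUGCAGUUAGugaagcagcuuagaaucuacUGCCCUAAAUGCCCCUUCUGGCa
MIR363: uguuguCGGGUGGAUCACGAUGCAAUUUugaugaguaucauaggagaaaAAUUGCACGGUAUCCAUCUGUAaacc

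The 6 hairpins of the locus lie on the minus strand of chromosome X between 134169378 and 134170278 (GRCh38), a span of 901 bases. In the direction of transcription the order is MIR106A, MIR18B, MIR20B, MIR19B2, MIR92A2 and MIR363. MIR363 starts 826 bases after MIR106A. All 6 lie inside 1 exon, from 134168911 to 134170352, of the processed transcript AC002407.1 in the GENCODE annotation. MIR19B2 and MIR92A2 give miR-19b-3p and miR-92a-3p, mature products with the same sequence as those of miR-17-92, so their rows cannot be assigned to 1 locus.

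Levels are given in RPM, reads scaled to the denominator the authors used for each library. Libraries held between 137655 and 2725756 miRNA reads, and 1 read was worth between 0.715 and 1.33 RPM. Divided by that denominator, the total of miRNA reads was 2.43 and 2.18 in homozygous libraries, 0.729 and 2.42 in hemizygous, 0.118 and 0.183 in null, and 2.09 and 2.33 in wild-type libraries. The null libraries thus held few miRNA reads, although the denominator of null replicate 1, at 1399486, was the highest of all libraries. Hemizygous replicate 1 stood apart. Over all miRNAs the median log2 difference of hemizygous replicate 2 over replicate 1 was 1.93, and over the 6 members it was 2.21. Fewer cells with a miRNA and fewer copies per cell cannot be told apart in such bulk samples. All 8 miRNAs listed as markers of pluripotent cells had a row, and their sum was 1060059 to 1153478 RPM in homozygous, 369244 to 1195320 in hemizygous, 61848 to 83726 in null and 830032 to 889644 in wild-type libraries. The 3 neural markers, all with a row, summed to 24482 to 29548 RPM in homozygous, 12107 to 28783 in hemizygous, 698 to 1045 in null and 17088 to 19360 in wild-type libraries. The 2 measured muscle markers of 3 listed summed to 590.3 to 669 RPM in homozygous, 269 to 645 in hemizygous, 5.00 to 13.3 in null and 400.4 to 429 in wild-type libraries. The pluripotent, neural and muscle sums of homozygous libraries thus all lay above those of wild type without overlap. The 3 measured fibroblast markers of 5 listed summed to 215 to 259 RPM in homozygous, 74.7 to 208 in hemizygous, 1.79 to 8.65 in null and 309 to 410 RPM in wild-type libraries, lower in homozygous than in wild-type libraries without overlap. Of the fibroblast markers, miR-199a-3p went the other way, with means of 131 RPM in homozygous and 81.7 RPM in wild-type cells. The 1 liver marker had no row, and the part of other cell types in the results was not tested.

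In wild-type cells the cluster was led by its miR-17 seed arms. There miR-20b-5p averaged 12360 ± 1106 RPM and miR-106a-5p 12217 ± 2340 RPM (SD, n = 2 each), and their libraries overlapped. Below them came miR-363-3p at 8320 ± 1633 RPM, miR-18b-5p at 4610 ± 734 RPM, miR-106a-3p at 848 ± 311 RPM and miR-20b-3p at 539 ± 100.4 RPM, with no overlap between neighbours. In homozygous cells the order was turned round. There miR-363-3p averaged 13204 ± 2052 RPM, miR-106a-3p 6053 ± 1086 RPM and miR-20b-3p 5731 ± 782 RPM, and the libraries of miR-106a-3p and miR-20b-3p overlapped. All 3 of the 5p arms lay below these, with miR-106a-5p at 1998 ± 259 RPM, miR-20b-5p at 1011 ± 106.3 RPM and miR-18b-5p at 455 ± 94.7 RPM. In null cells the 5p arms led again, with miR-106a-5p at 447 ± 76.7 RPM and miR-20b-5p at 353 ± 81.9 RPM, which overlapped, while the other 4 arms averaged between 29.9 and 71.8 RPM.

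**Figure D1:**
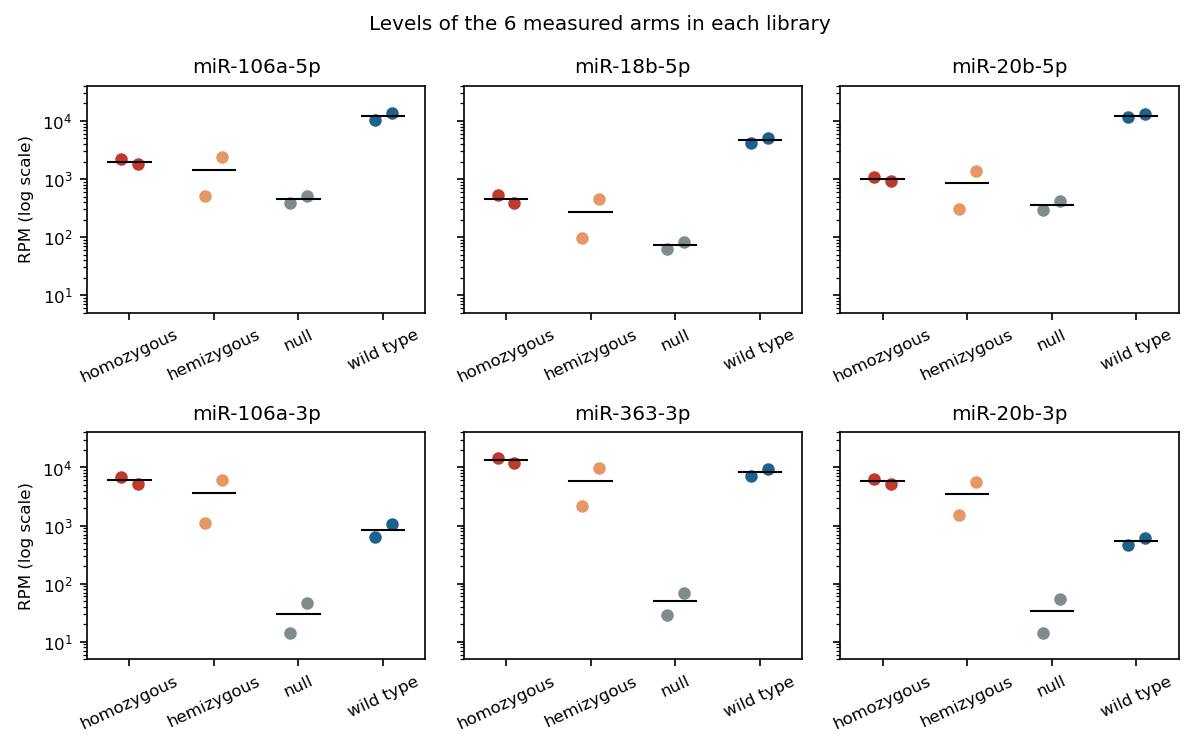
RPM (log scale) of the 6 measured arms in each library, with points for the 2 libraries of a genotype and a line at their mean. Homozygous libraries lie below wild-type libraries for the 5p arms of the top row and above them for the 3p arms of the bottom row, and null libraries reach at most 501 RPM.

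Homozygous S1344L cells had less of the 3 listed 5p arms with a row than wild-type cells, and more of 2 of the 3 listed 3p arms. The comparison addresses what the hotspot substitution does to miRNA production. Differences were called at an adjusted p under 0.05 by limma, adjusted over all 594 miRNAs. All 3 of the 5p arms fell, where 22.2% of all miRNAs were called lower, and 2 of the 3p arms rose, where 9.93% were called higher. The median log2 fold change was -0.97 over the 6 arms, and over all miRNAs it was -0.04. Among all 227 measured 5p arms 48.9% were called lower, and among all 300 measured 3p arms 18.7% were called higher.

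The guide miR-20b-5p, of the miR-17 seed family, had 1086 and 936 RPM in homozygous libraries, against 11577 and 13142 RPM in wild-type libraries. Both homozygous values were below both wild-type values, by a log2 fold change of -3.61 ± 0.88 (SE; limma adjusted p = 0.000509). Its relative miR-18b-5p had 522 and 388 RPM in homozygous libraries, against 4091 and 5130 RPM in wild-type libraries. The groups did not overlap, and the log2 fold change was -3.35 ± 0.93 (limma adjusted p = 0.00232). The arm miR-106a-5p had 2181 and 1815 RPM in homozygous libraries, against 10562 and 13871 RPM in wild-type libraries, again without overlap. Its log2 fold change, -2.60 ± 0.87 (limma adjusted p = 0.0113), was the smallest of the 3.

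The opposite strands of the same hairpins, which are passengers in wild-type cells, moved the other way. The arm miR-20b-3p had 6284 and 5178 RPM in homozygous libraries, against 468 and 610 RPM in wild-type libraries. Its log2 fold change of 3.42 ± 0.91 (limma adjusted p = 0.0014) was the 15th highest of the 594. The arm miR-106a-3p had 6821 and 5285 RPM in homozygous libraries, against 629 and 1068 RPM in wild-type libraries. The groups did not overlap, and the log2 fold change was 2.87 ± 0.91 (limma adjusted p = 0.00729).

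The arm miR-363-3p, known as the guide of its hairpin, comes from the 3p side. It had 14655 and 11753 RPM in homozygous libraries, against 7165 and 9474 RPM in wild-type libraries. The groups did not overlap, but the log2 fold change of 0.67 ± 0.86 was not called (limma adjusted p = 0.647), and its 95% interval ran from -1.02 to 2.36. It was called under median-ratio, upper-quartile and quantile scaling and in a fit of the 4 libraries alone, with adjusted p between 0.000255 and 0.0133.

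The calls in homozygous cells rest on both libraries of each genotype, and on a spread pooled with the hemizygous and null libraries. Over all miRNAs the median log2 difference of replicate 2 over replicate 1 was -0.23 in homozygous and 0.23 in wild-type cells, against 1.93 in hemizygous cells. A fit of the 4 libraries compared alone called 372 of the 594 miRNAs, among them all 6 arms, against 191 and 5 in the main fit. Without homozygous replicate 2 or wild-type replicate 2 none of the 5 arms was called, where 6.06% and 11.3% of all miRNAs were called in either direction. Without homozygous replicate 1 or wild-type replicate 1 only miR-20b-5p was, where 10.6% and 11.6% of all miRNAs were, and every direction stayed. Scaling moved the median of all miRNAs to between -0.10 and 0.82, so that 254 of 404 calls were higher under upper-quartile scaling, against 59 of 191 here, and the 5 arms kept their call and direction under each scaling.

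**Figure D2:**
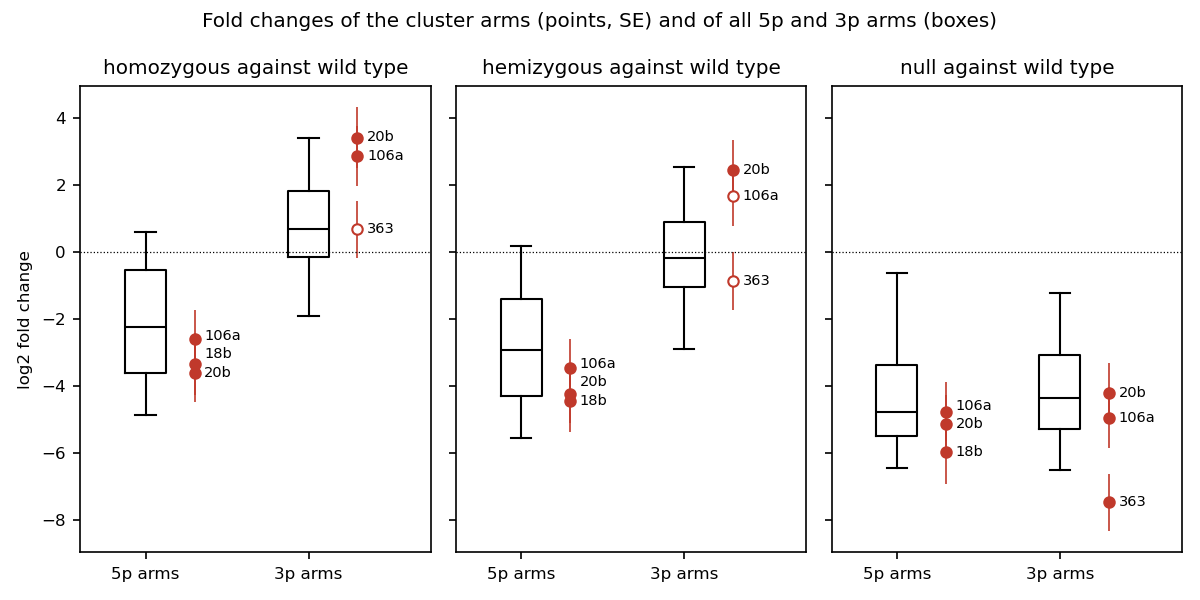
Log2 fold changes of the 6 arms in homozygous, hemizygous and null against wild-type cells, drawn as points with SE (filled where called by limma at an adjusted p under 0.05). Boxes give the quartiles of all 5p and all 3p arms, with whiskers at the 5th and 95th percentiles. In both S1344L genotypes the listed 5p arms lie below 0 and miR-20b-3p is the highest of the listed 3p arms.

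Hemizygous S1344L cells also had less of the 3 listed 5p arms with a row, and more miR-20b-3p, than wild-type cells. Of the 6 arms, 3 fell, where 30.6% of all miRNAs were called lower, and 1 rose, where 4.04% were called higher. The median log2 fold change was -2.16 over the 6 arms, against -0.89 over all miRNAs. The same wild-type libraries serve both S1344L comparisons.

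In hemizygous libraries miR-18b-5p had 95.8 and 454 RPM, miR-20b-5p 307 and 1402 RPM, and miR-106a-5p 508 and 2373 RPM. Each of these values lay below both wild-type values of the arm, although the hemizygous libraries were over 4-fold apart. The log2 fold changes against wild type were -4.45 ± 0.93 for miR-18b-5p (limma adjusted p = 2.62e-05), -4.23 ± 0.88 for miR-20b-5p (2.45e-05) and -3.46 ± 0.87 for miR-106a-5p (0.000412). The last was lost without wild-type replicate 2, at an adjusted p of 0.0547.

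On the 3p side, miR-20b-3p had 1531 and 5579 RPM in hemizygous libraries, above both wild-type libraries, with a log2 fold change of 2.45 ± 0.91 (limma adjusted p = 0.0231). That call was lost without any 1 of 5 libraries (hemizygous replicate 2 and both homozygous and both wild-type replicates), with adjusted p between 0.0754 and 0.236, and in a fit of the 4 libraries compared alone, at 0.189. The arm miR-106a-3p had 1123 and 6156 RPM in hemizygous libraries, also above both wild-type libraries, and its log2 fold change of 1.68 ± 0.91 was not called (limma adjusted p = 0.143, 95% interval -0.09 to 3.46). Under each of the 4 other scalings it was called, with adjusted p between 6.31e-05 and 0.00238. The arm miR-363-3p had 2128 and 9686 RPM in hemizygous libraries, on either side of the wild-type libraries, and its log2 fold change was -0.86 ± 0.86 (limma adjusted p = 0.506, 95% interval -2.55 to 0.83). Its sign turned under median-ratio, upper-quartile and quantile scaling, and at 0.97 under upper-quartile scaling it was called higher (limma adjusted p = 0.0031). Without hemizygous replicate 2 it was called lower, at -1.95 (limma adjusted p = 0.009).

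Between hemizygous and homozygous cells none of the 6 arms was called by limma, and none had an unadjusted p under 0.05. Over all 594 miRNAs 0% were called higher and 0% lower, and 7 had an unadjusted p under 0.05. The log2 differences ran from -1.53 for miR-363-3p, whose 95% interval was -3.22 to 0.16, to -0.62 for miR-20b-5p, with an interval of -2.35 to 1.11. For miR-363-3p both hemizygous libraries lay below both homozygous libraries, and the other 5 arms overlapped. The share of all miRNAs without overlap was not counted, and the median log2 difference of all miRNAs was -0.85. With hemizygous replicate 1 alone, that is without hemizygous replicate 2, all 6 arms were called lower than in homozygous cells (adjusted p between 0.00842 and 0.0319), where 72.2% of all miRNAs were called lower and their median was -1.81. Without hemizygous replicate 1 none was called, and 4 of the 6 turned to higher.

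Dicer-null cells had less of all 6 arms than wild-type cells, and the deepest loss was that of miR-363-3p. This arm had 28.9 and 69.9 RPM in null libraries, against 7165 and 9474 RPM in wild-type libraries. The log2 fold change of -7.48 ± 0.86 (limma adjusted p = 3.70e-15) had the smallest p of all 594 miRNAs and was the 6th lowest fold change. In null cells 87.2% of all miRNAs were called lower and 1.35% higher, so that the count of 6 of 6 lies near that of the whole table. The median was -5.05 over the 6 arms, against -4.49 over all miRNAs.

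In null libraries the 5p arms had 61.8 and 81.9 RPM (miR-18b-5p), 295 and 411 RPM (miR-20b-5p), and 393 and 501 RPM (miR-106a-5p). These were means of 1.56%, 2.85% and 3.66% of the wild-type means, with log2 fold changes of -5.99 ± 0.93, -5.14 ± 0.88 and -4.77 ± 0.87 (limma adjusted p between 1.35e-09 and 1.31e-07). The passengers miR-106a-3p, with 13.9 and 45.9 RPM, and miR-20b-3p, with 13.9 and 53.9 RPM, rested on between 19 and 40 reads per library. Their log2 fold changes were -4.95 ± 0.91 and -4.22 ± 0.91 (limma adjusted p = 1.50e-07 and 6.96e-06).

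These falls in null cells depend on how libraries of such different miRNA content are scaled. The other scalings bring the libraries to a common level of miRNAs. They therefore take out a loss shared by most miRNAs and cannot show whether there was one. With each library scaled to its own miRNA reads the median of all miRNAs was -1.18, and 4 of the 6 arms were called lower, where 48% of all miRNAs were. Under median-ratio scaling the median was -0.61, with 3 arms and 31.8% of all miRNAs called lower. Under quantile normalization it was -0.33, with 3 arms and 28.1%, and under upper-quartile scaling 0.23, with 2 arms and 16.3%. Under upper-quartile scaling miR-106a-5p turned to 0.22, and miR-20b-3p turned to between 0.21 and 0.71 under those 3 scalings, none of them called. Only miR-363-3p and miR-18b-5p stayed called and lower under each scaling, at -2.52 to -3.62 for miR-363-3p and -1.02 to -2.11 for miR-18b-5p.

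Against null cells, both S1344L genotypes held far more of the cluster's listed 3p arms, as of most 3p arms in the table. Among all 300 measured 3p arms, 96.3% were called higher in homozygous and 90% in hemizygous over null cells. The median log2 fold changes of all 3p arms were 4.88 and 3.99. In homozygous over null cells the log2 fold changes were 8.15 ± 0.86 for miR-363-3p, 7.83 ± 0.91 for miR-106a-3p and 7.64 ± 0.91 for miR-20b-3p (limma adjusted p at most 4.95e-15). The first was the second highest of all 594. Of the 6 arms 5 were called higher, where 76.3% of all miRNAs were called higher and 2.02% lower. In hemizygous over null cells these arms stood at 6.62 ± 0.86, 6.64 ± 0.91 and 6.67 ± 0.91 (limma adjusted p at most 1.95e-11). There 3 of the 6 arms were called higher, where 63.8% of all miRNAs were called higher and 1.01% lower. The null libraries serve both comparisons. The 3p arms stayed called under every alternative run, at log2 fold changes of at least 3.58 in homozygous and 3.23 in hemizygous over null cells.

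For the 5p arms the sign against null cells changed with the scaling. On the deposited scale, homozygous over null log2 fold changes were 2.64 ± 0.93 for miR-18b-5p (limma adjusted p = 0.00667), 2.16 ± 0.87 for miR-106a-5p (0.0172) and 1.53 ± 0.88 for miR-20b-5p (0.1003, not called, but called at 0.00482 in a fit of the 4 libraries alone). In hemizygous over null cells they were 1.54 ± 0.93, 1.31 ± 0.87 and 0.91 ± 0.88, none of them called. The homozygous call of miR-106a-5p was lost without any 1 of the homozygous, null or wild-type libraries, and that of miR-18b-5p without null replicate 1 or either homozygous library. Without hemizygous replicate 1 all 3 were called higher in hemizygous cells, where 84.3% of all miRNAs were. Under each of the 4 other scalings all 3 were called lower than in null cells, in both genotypes, at -1.30 to -2.57 for homozygous and -1.56 to -2.29 for hemizygous cells. Scaled to own miRNA reads, by median ratio, by upper quartile and by quantiles, 29.3%, 30.6%, 32.5% and 30.5% of all miRNAs were called lower in homozygous and 30.3%, 30.3%, 32.5% and 30.8% in hemizygous cells. As shares of the miRNA reads of a library, the 3 measured 5p arms summed to 0.156% and 0.144% in homozygous, 0.125% and 0.174% in hemizygous, 0.633% and 0.541% in null, and 1.26% and 1.38% in wild-type libraries. The 3 measured 3p arms summed to 1.14% and 1.02% in homozygous, 0.656% and 0.884% in hemizygous, 0.0472% and 0.0915% in null, and 0.396% and 0.478% in wild-type libraries. The 95% Wilson interval of the smallest of these shares, 0.0472% from 78 reads, was 0.0378% to 0.0589%, and such intervals cover counting error only.

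Apart from the 1 RPM added to each arm, which weighs on low arms, the balance within a hairpin does not depend on library scaling. This balance of the arms was turned over in both S1344L genotypes. The log2 ratio of 3p over 5p RPM was tested by limma over the 186 hairpins with both arms in the table. For miR-18b the 3p arm, miR-18b-3p, is in the table though not among the listed arms. In homozygous cells all 3 cluster hairpins shifted toward 3p, where 79% of all hairpins were called, and likewise in hemizygous cells, where 77.4% were. The median shift in homozygous cells was 5.48 over the 3 hairpins and 3.29 over all 186.

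Of the reads of the miR-20b hairpin, the 5p arm held 14.7% and 15.3% in homozygous libraries, 16.7% and 20.1% in hemizygous, 95.6% and 88.5% in null, and 96.1% and 95.6% in wild-type libraries. The log2 ratio shifted by 7.03 ± 0.51 in homozygous cells (limma adjusted p = 1.30e-08), the 10th largest of the 186, and by 6.68 ± 0.51 in hemizygous cells (2.32e-08). For miR-106a the 5p arm held 24.2% and 25.6% in homozygous libraries, 31.1% and 27.8% in hemizygous, 96.7% and 91.7% in null, and 94.4% and 92.9% in wild-type libraries. Its shifts were 5.48 ± 0.51 in homozygous (limma adjusted p = 1.80e-07) and 5.14 ± 0.51 in hemizygous cells (3.79e-07). For miR-18b the 5p arm held 31.8% and 31.4% in homozygous libraries, 20.2% and 43.7% in hemizygous, 90.5% and 85.9% in null, and 88.9% and 92.3% in wild-type libraries. Its shifts were 4.40 ± 0.55 in homozygous (limma adjusted p = 3.12e-06) and 4.46 ± 0.55 in hemizygous cells (3.59e-06). In every one of these 3 hairpins both S1344L genotypes lay on the 3p side of even balance and both null and wild-type cells on the 5p side.

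In null cells none of the 3 cluster hairpins was called, and none had an unadjusted p under 0.05. Of all 186 hairpins, 51 (27.4%) were called toward 3p and 34 toward 5p. The shifts were -0.19 ± 0.51 for miR-106a, 0.55 ± 0.55 for miR-18b and 0.92 ± 0.51 for miR-20b, whose limma adjusted p was 0.141. The last was called without null replicate 1, at 1.62 with an adjusted p of 0.0169, and with a pseudocount of 5 RPM, at 1.12 with 0.0355. Only between 9 and 40 reads per null library stood behind these 3p arms. Between hemizygous and homozygous cells none of the 3 hairpins was called, none had an unadjusted p under 0.05, and 0% of all hairpins were called.

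**Figure D3:**
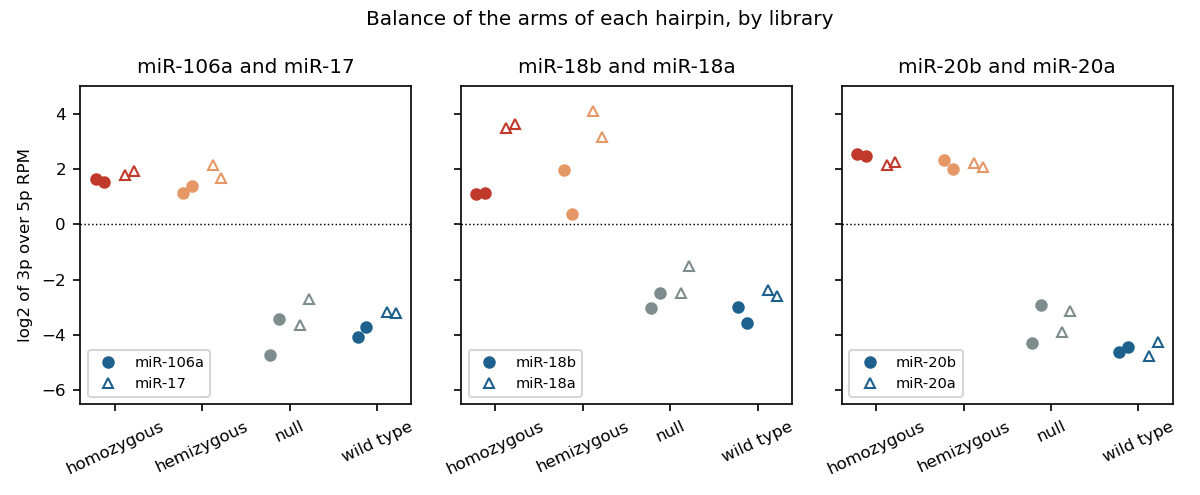
Log2 ratio of 3p over 5p RPM of each cluster hairpin (filled circles) and its miR-17-92 paralog (open triangles) in every library, by genotype. All S1344L libraries lie above 0 and all null and wild-type libraries below it, and the miR-18 hairpins differ most between paralogs in S1344L cells.

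The miR-17-92 paralogs moved in the same directions. In homozygous against wild-type cells the shifts were 6.71 ± 0.47 for miR-20a, 6.04 ± 0.45 for miR-18a and 5.03 ± 0.47 for miR-17, with limma adjusted p between 1.02e-08 and 1.58e-07. Of the 10 arms of miR-17-92 listed beside the shared products, 3 were called higher (miR-17-3p, miR-18a-3p and miR-20a-3p) and 3 lower (miR-17-5p, miR-18a-5p and miR-20a-5p) in homozygous cells, with a median log2 fold change of -1.01. Of the 6 arms of miR-106b-25, the paralog inside MCM7, 1 was called higher and 2 lower in homozygous cells, with a median of -1.21. The one higher was miR-93-3p (log2 fold change 3.16) and those lower were miR-106b-5p (-3.75) and miR-93-5p (-2.82). Over all 594 miRNAs 9.93% were called higher and 22.2% lower in homozygous cells. In hemizygous cells 1 of the 10 was called higher and 4 lower, and 0 of the 6 higher and 3 lower. Of all miRNAs 4.04% were called higher there and 30.6% lower. In null cells 9 of the 10 and 6 of the 6 were called lower, counts near the 87.2% of all miRNAs called lower.

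Set against its nearest paralog within the same library, miR-106a-5p differed between genotypes by less than the spread between libraries. The log2 ratio of miR-106a-5p over miR-17-5p, which differ in 1 base, averaged -2.04 ± 0.05 in homozygous, -2.11 ± 0.13 in hemizygous, -2.07 ± 0.20 in null and -2.05 ± 0.14 in wild-type cells (SD, n = 2 each). All groups overlapped with wild type. The sources used here do not say how the authors assigned reads to near-identical miRNAs, and the part of that assignment in these ratios was not tested.

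The ratio of miR-20b-5p over miR-20a-5p was lower in every genotype than in wild type. It averaged -2.68 ± 0.03 in homozygous, -2.58 ± 0.11 in hemizygous and -2.99 ± 0.00307 in null cells, against -2.00 ± 0.00837 in wild-type cells, and none of these groups overlapped with wild type. Over 6 pairs and 3 comparisons, 18 in all, the smallest two-sided exact permutation p that 2 against 2 libraries allow is 0.333, and no adjusted value was under 0.545. For the passengers, miR-20b-3p over miR-20a-3p averaged -2.40 ± 0.10 in homozygous, -2.57 ± 0.03 in hemizygous, -3.07 ± 0.45 in null and -2.03 ± 0.23 in wild-type cells, also without overlap.

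The ratio of miR-363-3p over miR-92a-3p differed most in null cells. It averaged -2.38 ± 0.15 in homozygous, -3.29 ± 0.39 in hemizygous and -6.97 ± 0.58 in null cells, against -2.60 ± 0.15 in wild-type cells. The null value lay 20.7-fold below that of wild type, without overlap. In null libraries miR-363-3p rested on 40 and 52 reads. The row of miR-92a-3p holds reads of both loci.

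**Figure D4:**
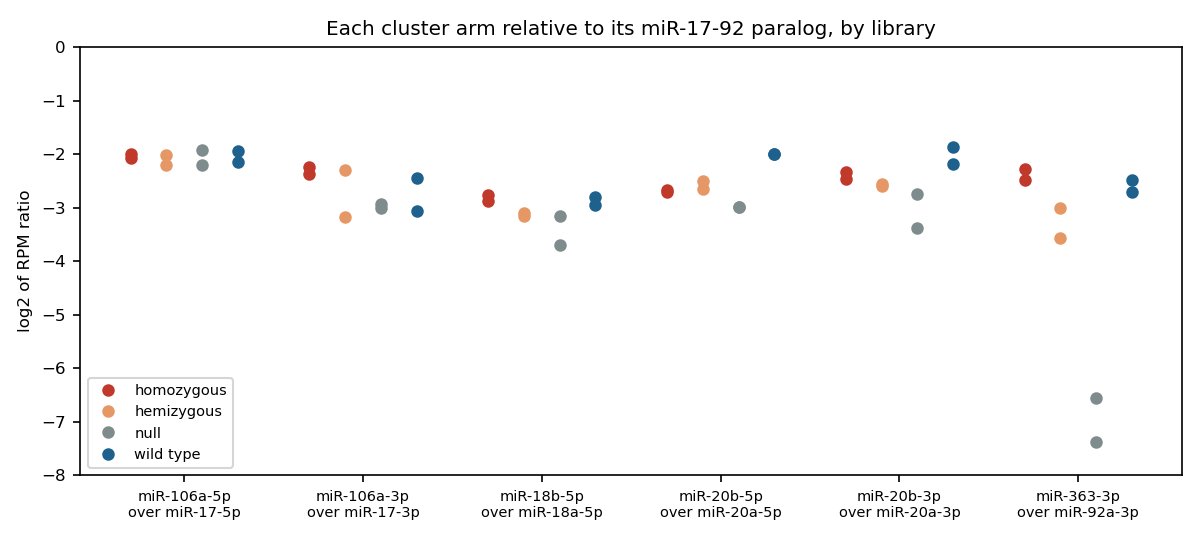
Log2 ratio of RPM of each cluster arm over its miR-17-92 paralog in every library, coloured by genotype. The ratio of miR-106a-5p over miR-17-5p lies near -2 in all 4 genotypes, miR-20b-5p over miR-20a-5p is lower in all 3 mutant genotypes, and miR-363-3p over miR-92a-3p lies near -7 in null cells.

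Because miRNAs of 1 seed share targets, the cluster was also placed within its seed families, over the 533 miRNAs matched to a RefSeq mature sequence. The miR-17 seed was held by 8 miRNAs, which together took 1.32 ± 0.05% of the miRNA reads in homozygous, 1.28 ± 0.26% in hemizygous, 4.38 ± 0.06% in null and 7.81 ± 0.40% in wild-type cells. Within that pool the cluster's miR-106a-5p and miR-20b-5p contributed 9.87 ± 0.10% in homozygous, 10.4 ± 0.34% in hemizygous, 12.3 ± 1.18% in null and 14.2 ± 0.15% in wild-type cells. None of the groups overlapped with wild type (two-sided exact permutation p = 0.333 each, the smallest possible). Without null replicate 2 the null difference of -1.90 percentage points became -1.07.

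By mean RPM over the 8 libraries, the most abundant other holders of the seed were miR-17-5p, then miR-20a-5p and then miR-106b-5p, arms of the paralogous clusters. The order differed between genotypes, and in homozygous cells miR-106b-5p (1526 RPM) lay below miR-519d-3p (6369 RPM), miR-93-5p (2426 RPM) and miR-526b-3p (2375 RPM). The first 3 were called lower in homozygous cells, with log2 fold changes of -2.61 for miR-17-5p, -2.93 for miR-20a-5p and -3.75 for miR-106b-5p. The pool also holds 2 miRNAs that come from a 3p arm, miR-519d-3p and miR-526b-3p of the chromosome 19 cluster, chosen after their values were seen. Their homozygous means were 6369 and 2375 RPM, against 5826 and 5050 RPM in wild type, and neither was called (log2 fold changes 0.14 ± 0.86 and -1.08 ± 0.88, limma adjusted p = 0.936 and 0.413).

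The miR-18 seed was held by miR-18b-5p and miR-18a-5p alone, which took 0.158 ± 0.01% of reads in homozygous, 0.157 ± 0.04% in hemizygous, 0.576 ± 0.07% in null and 1.73 ± 0.03% in wild-type cells. The cluster's part was 12.4 ± 0.70% in homozygous, 10.2 ± 0.26% in hemizygous, 8.49 ± 2.04% in null and 12.0 ± 0.80% in wild-type cells. Homozygous and wild-type libraries overlapped.

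The miR-92 seed pool, of 6 miRNAs, held a larger share of reads in S1344L than in wild-type cells. It took 14.2 ± 0.07% in homozygous, 14.1 ± 0.16% in hemizygous, 14.4 ± 3.48% in null and 11.4 ± 0.98% in wild-type cells, and null and wild type overlapped. For both S1344L genotypes the exact permutation p was 0.333, the smallest possible. The arm miR-363-3p supplied 4.03 ± 0.35% of the pool in homozygous, 2.45 ± 0.51% in hemizygous, 0.213 ± 0.02% in null and 3.27 ± 0.11% in wild-type cells, with no overlap with wild type. By mean RPM over the 8 libraries the most abundant holders were miR-367-3p, miR-92a-3p and miR-25-3p, none of them called in homozygous cells (limma adjusted p at least 0.730). In wild-type cells miR-25-3p, at 13400 RPM, lay below miR-92b-3p, at 14377 RPM. The 1 holder from a 5p arm, miR-32-5p, also named after its values were seen, averaged 956 RPM in homozygous and 6354 RPM in wild-type cells (log2 fold change -2.73 ± 0.91, limma adjusted p = 0.0108).

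**Figure D5:**
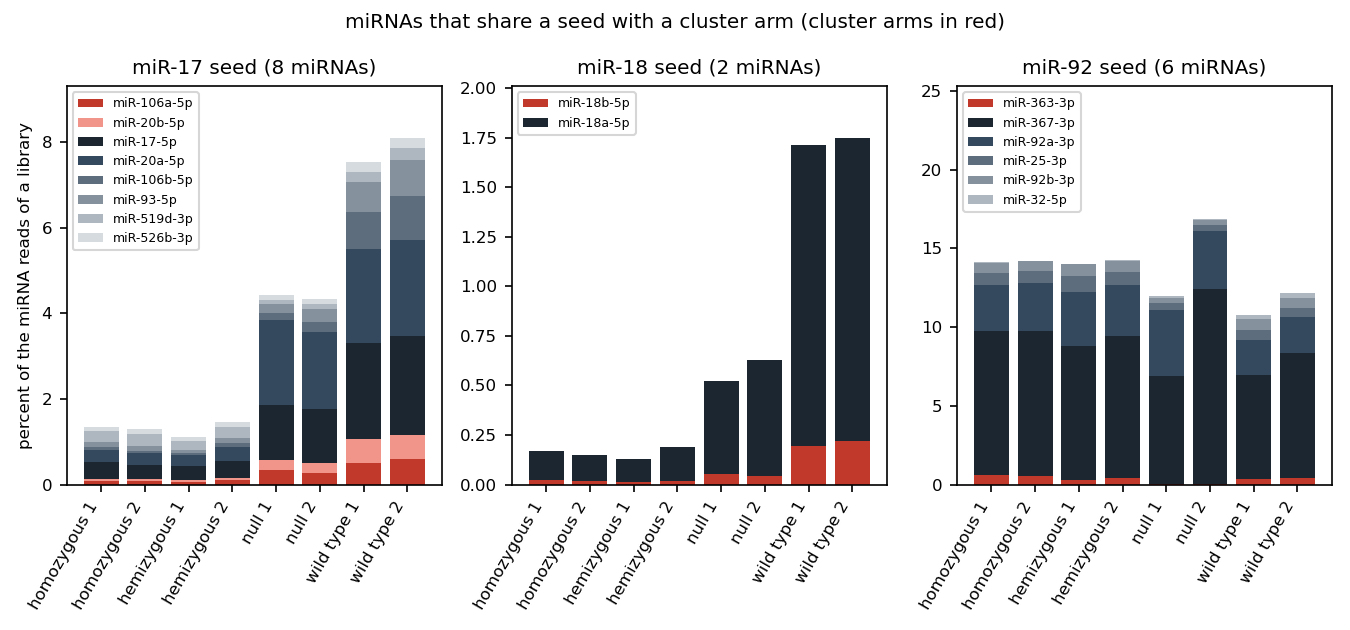
Percent of the miRNA reads of each library held by miRNAs with the miR-17, miR-18 or miR-92 seed, stacked by miRNA with cluster arms in red; the 3 vertical axes differ. S1344L libraries hold under 1.5% in the miR-17 pool, against over 7% in wild-type libraries, and over 14% in the miR-92 pool.

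The table also holds other arms of the locus. The arm miR-18b-3p, partner of miR-18b-5p, had 1117 and 848 RPM in homozygous libraries, 378 and 585 in hemizygous, 6.79 and 14.0 in null, and 510 and 427 in wild-type libraries. It was not called in homozygous cells (log2 fold change 1.06 ± 0.96, limma adjusted p = 0.474) and fell in null cells (-5.44 ± 0.96, limma adjusted p = 6.06e-08). The passenger miR-19b-2-5p had 33.4 and 82.3 RPM in homozygous libraries, 7.65 and 117 in hemizygous, 15.4 and 35.3 in null, and 141 and 338 in wild-type libraries. It was called lower in hemizygous and null cells (limma adjusted p = 0.0193 and 0.0021). The passenger miR-92a-2-5p had 29.1 and 33.1 RPM in homozygous libraries, 20.0 and 46.9 in hemizygous, 34.7 and 65.9 in null, and 40.9 and 178 in wild-type libraries, and was called in none of these comparisons with wild type. The shared product miR-19b-3p averaged 87369 ± 3889 RPM in homozygous, 55916 ± 34710 in hemizygous, 3001 ± 1046 in null and 54382 ± 5730 in wild-type cells, and was called in null cells alone. The Dicer-independent miR-451a, whose hairpin is cut by AGO2, was not called in any of the 3 comparisons with wild type, with log2 fold changes of 1.40 ± 0.94 in homozygous, 0.16 ± 0.94 in hemizygous and -1.50 ± 0.94 in null cells.

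By pattern over the 8 libraries, the miRNAs most like miR-106a-5p on the log2(RPM + 1) scale were miR-17-5p (Pearson r = 0.998), miR-32-5p (0.997) and miR-500b-5p (0.996), all from 5p arms. Those most like miR-363-3p were miR-330-3p (0.999), miR-200c-3p (0.999) and miR-199a-3p (0.998), all from 3p arms. They were taken among 487 candidates with a mean of at least 50 RPM in 1 genotype. The 8 points of each comparison share their libraries, depth and scaling, and fall into 4 genotypes.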

How the data were processed

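Small RNAs of 8 H1 libraries, 2 per genotype, were read from 1 table of the whole series. The submitters' processing notes name cutadapt, limma and the hg38 build. The sources used here do not give the aligner, the counting of near-identical miRNAs or the scaling. The deposited values are log2 RPM with 0.5 of a read added, as read from the values: in each library they step as whole reads over 1 denominator. They were turned back to RPM and reads (largest distance from a whole read 7.31e-09). The analysis had been planned for this unit. A count of 0 would allow up to 3 reads, that is 2.14 to 3.99 RPM. No sample column went unused.

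Log2(RPM + 1) values were fitted with limma 3.58.1 (R 4.3.3), on a scale that understates changes of low miRNAs, in 1 model of the 4 group means over all 8 libraries, with a variance trend, two-sided, adjusted by Benjamini-Hochberg over 594 miRNAs. The filter was 5 RPM in 2 libraries. The estimated prior was infinite, so that miRNAs of 1 level share 1 spread. Hairpin ratios were fitted alike over 186 hairpins. Both fits were tested on simulated reads of 1 dispersion, with each library scaled to its own depth. The simulation held no outlying replicate, so it does not cover the spread of the hemizygous libraries or the deposited scaling. Ratios and shares were compared by exact permutation tests. Limma p-values of the arms rest on the spread between the 2 independent samples of a genotype, pooled over the 4 genotypes. As it is also shared by miRNAs of 1 level, it is not the spread of 1 arm in the 2 groups compared. Shares carry 95% Wilson intervals.

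The members and lists were chosen with earlier results of these data known. Named miRNAs are the listed arms, their paralogs, other products of the locus, miR-451a, up to 4 examples of the paralog lists, the 3 most abundant others of a seed pool, and the 3 miRNAs most like 1 arm of each side. Alternatives covered pseudocounts, filters, scalings, variance options, a replicate block, a stricter threshold and each library left out. Voom weights, a crossed block and own-read scaling without hemizygous replicate 1 were added after seeing the data.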

Additional observations from a re-analysis of the deposited data

How the results depend on the processing

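The small number of miRNA reads limits the null libraries, and the spread between 2 libraries limits all calls. Of the arm-level values recomputed under the alternatives, 676 of 798 kept their direction and side of the threshold, 47 lost and 23 gained a call and 52 turned sign, and of the hairpin values 175 of 180 kept theirs. The cause of these changes was not tested. Of 594 miRNAs 489 passed the filter of 50 RPM.

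When each library was left out in turn, the number of the 6 arms called ranged from 0 to 5 in homozygous against wild type, 2 to 5 in hemizygous against wild type, 0 to 6 in hemizygous against homozygous, 3 to 6 in homozygous against null and 3 to 6 in hemizygous against null. Hairpins called in null against wild type ranged from 0 to 1, and paralog pairs without overlap in homozygous against wild type from 3 to 6. In each of these comparisons of arms the number of all miRNAs called also changed with the library left out. The ranges are therefore not particular to the cluster. A genotype left with 1 library was assumed to vary like the others.

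Arms called in null against wild type numbered 3 under median-ratio scaling, 2 under upper-quartile scaling and 3 under quantile normalization. In hemizygous against null 6 were called under those 3 scalings and under scaling to own miRNA reads, in opposite directions. The listed 3p arms were called higher, as in the main fit, and the added calls were those of the 5p arms, which were lower. The shares of all miRNAs called lower under each of these scalings are given in the Results. On own reads with hemizygous replicate 1 also left out, the arms kept these directions. With a pseudocount of 5 RPM 1 hairpin was called in null against wild type.

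Sign changes follow, as log2 values. For miR-363-3p in hemizygous against wild type they were 0.46 under median-ratio, 0.97 under upper-quartile and 0.21 under quantile scaling, 0.10 on own reads without hemizygous replicate 1, and -1.95 to 0.23 with libraries left out. In null against wild type, upper-quartile scaling gave 0.22 for miR-106a-5p, and miR-20b-3p became 0.21, 0.71 and 0.33 under median-ratio, upper-quartile and quantile scaling.

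In hemizygous against homozygous, miR-106a-5p became 0.044 under median-ratio and 0.065 under upper-quartile scaling, 0.18 on own reads without hemizygous replicate 1, and -1.97 to 0.25 with libraries left out. There miR-20b-5p became 0.17 on own reads, 0.28 under median-ratio, 0.30 under upper-quartile and 0.28 under quantile scaling, 0.40 on own reads without hemizygous replicate 1, and -1.71 to 0.48 with libraries left out. Leaving out libraries gave -2.42 to 0.036 for miR-106a-3p and -2.22 to 0.014 for miR-18b-5p.

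In homozygous against null the 5p arms turned negative, listed on own reads, under median-ratio, upper-quartile and quantile scaling, and on own reads without hemizygous replicate 1. The values were -1.80, -1.94, -1.92, -1.98 and -1.80 for miR-106a-5p, -1.30, -1.43, -1.42, -1.31 and -1.30 for miR-18b-5p, and -2.43, -2.57, -2.55, -2.57 and -2.43 for miR-20b-5p. In hemizygous against null, in the same order, they were -1.87, -1.89, -1.86, -2.00 and -1.62 for miR-106a-5p, -1.61, -1.64, -1.61, -1.56 and -1.36 for miR-18b-5p, and -2.26, -2.28, -2.25, -2.29 and -2.03 for miR-20b-5p, which ranged from -0.18 to 2.01 with libraries left out.

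The shift of the miR-106a hairpin in null against wild type was 0.023 with a pseudocount of 5 RPM and -0.84 to 0.46 with libraries left out, and that of miR-18b in hemizygous against homozygous was -0.75 to 0.86.

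Replicate numbers pair no samples in the labels, and correlations of same-numbered deviations ran from -0.11 to 0.62. With the replicate block the arms called stayed at 5 for homozygous, 4 for hemizygous and 6 for null cells set against wild type, at 0 between the S1344L genotypes, and at 5 for homozygous and 3 for hemizygous cells set against null, and the block changed no hairpin count. With the hemizygous numbers crossed, the replicate block in hemizygous against null called 365 miRNAs and 3 arms.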
